A study of Mus musculus with 6 samples.

Results

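Tlx1, Wt1, Lhx9, Tcf21, Nkx3-2 and Nr5a1 are transcription factors of the mesenchyme beside the embryonic stomach, where the spleen forms. The 6 genes were listed by name, and each was read from the probe set annotated to its symbol alone with the highest mean over the arrays; all 6 were measured, of 19938 genes in all. RNA came from stomach dissected from mouse embryos at E13.5 (E for embryonic day) and was hybridised to 6 Affymetrix arrays. The 3 SmoM2 arrays held stomach of genotype Nkx3.2Cre;R26-SmoM2, in which SmoM2, a form of Smoothened that signals without hedgehog ligand, is placed at the Rosa26 locus and switched on by a Cre recombinase driven from Nkx3-2. The 3 wild type arrays held stomach labelled only as wild type, and whether those embryos carried either allele alone is not given in the sources used here. The transgene therefore acts in cells with a history of Nkx3-2 expression, while each array measured all cells of the dissected tissue together. Nothing in the labels tells whether a replicate was 1 embryo or several, so each p-value rests on a spread between arrays that may be technical in part. How many embryos that spread covers is not known. The wild type arrays differed in Xist (7.11, 11.94 and 11.68), so they did not all hold the same material.

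The spleen arises in the dorsal mesogastrium, the fold of mesoderm that hangs the stomach from the back wall, and its mesenchyme and covering epithelium are laid down next to the greater curvature of the stomach. Tlx1 (also called Hox11) is a homeobox gene without which mice have no spleen. Nkx3-2 (Bapx1) and Tcf21 (capsulin or Pod1) are also needed for the organ, and Nkx3-2 marks the splanchnic mesodermal plate from which its mesenchyme comes. Wt1, a zinc finger factor of mesothelium, kidney and gonad, is needed for the spleen as well, and in the spleen of Tlx1 mutant mice its transcript is reported to be reduced. Lhx9, a LIM homeobox factor, is best known for its need in the gonad, and Nr5a1 (steroidogenic factor 1), a nuclear receptor, for its need in the gonad, the adrenal gland and the vessels of the spleen.

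Promoter sequence was at hand for 4 of the 6 genes, Tlx1, Lhx9, Nkx3-2 and Tcf21 (RefSeq, GRCm38.p6). The 250 bases before the start of the genes with the largest changes described below are shown, Tlx1 (chr19:45150465-45150714, plus strand) and Lhx9 (chr1:138842445-138842694, minus strand), each read 5′ to 3′ along the gene, with capitals for motifs found on either strand. Both windows lie inside the span of their gene's RefSeq record, which holds further start sites.
Tlx1: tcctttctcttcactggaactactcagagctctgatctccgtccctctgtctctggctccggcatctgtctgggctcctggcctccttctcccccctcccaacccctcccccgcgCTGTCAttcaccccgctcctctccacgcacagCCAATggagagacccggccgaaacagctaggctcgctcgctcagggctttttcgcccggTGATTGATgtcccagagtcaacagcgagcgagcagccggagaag
Lhx9: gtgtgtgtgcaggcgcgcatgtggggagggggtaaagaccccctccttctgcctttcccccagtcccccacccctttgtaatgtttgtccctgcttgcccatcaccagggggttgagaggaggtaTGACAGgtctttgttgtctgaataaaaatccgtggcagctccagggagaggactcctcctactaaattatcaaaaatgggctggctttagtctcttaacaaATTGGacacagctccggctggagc
In the Tlx1 window the capitals mark, in order, a match to TGACAG on the opposite strand (a site type of MEIS and TGIF factors) at position -135 from the start, a CCAAT box at -103 and TGATTGAT at -44, a match to TGATNNAT, the site type of PBX proteins with a Hox partner. The Lhx9 window held TGACAG at -125 and a CCAAT box on the opposite strand at -24. Among 32851 promoter windows of the same length, 7.68% held TGATNNAT, 15.9% TGACAG and 33.8% CCAAT. The GLI core CCACCCA, present in 8.11% of the windows, was not found in any of the 4, nor were TNAAGTG (NKX2 factors, 10.1%), TAATTA (LIM homeodomain factors, 4.84%), AAGGTCA (Nr5a1, 4.08%), GCGTGGG (EGR and WT1, 4.3%) or TATAAA (the TATA box, 12.4%). The Nkx3-2 window held TGACAG at -243 on the opposite strand. That match overlapped a bHLH site type, CAGCTG, at -246, which 13.0% of the windows held. In the Tcf21 window a GATA site type was found at -31, spelled AGATAA, which 9.99% of the windows held. These matches describe letters in short windows and say nothing of binding.

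Values are log2 signals after RMA (background correction, quantile normalization and probe set summary), and array medians lay between 8.56 and 8.62. No detection call was available. Olfactory and vomeronasal receptor genes, 1194 of them taken as genes the stomach does not use, had array medians from 6.16 to 6.40, and 5% of them had a mean above 8.05. The arrays fell into 2 sets by their correlation over all probe sets, SmoM2 2 with wild type 1 and 2, and SmoM2 1 and 3 with wild type 3 (r from 0.993 to 0.995 within and from 0.983 to 0.992 between the sets). Sex-linked transcripts differed too. The mean of 3 Y-linked genes ran from 8.71 to 9.27 in SmoM2 and from 9.07 to 10.37 in wild type, and Xist from 11.43 to 12.37 in SmoM2, while the wild type arrays had 7.11, 11.94 and 11.68. Limma called 0 of the 4 sex-linked genes, 3 had an unadjusted p under 0.05, and Xist and Uty had log2 changes of 1.66 and -0.87.

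Of the 6 factors, 3 fell in SmoM2 and 3 did not pass the test. Tlx1 fell the most, Lhx9 next and Wt1 least of these, while Tcf21, Nkx3-2 and Nr5a1 overlapped between the groups. Among all genes tested, 0.657% were lower in SmoM2 and 0.326% higher (0.983% in either direction; limma, Benjamini-Hochberg adjusted p under 0.05), and 10.1% had all SmoM2 arrays below all wild type arrays, which held for the same 3 factors; 5.64% had all SmoM2 arrays above, which held for 0 of the 6 (15.7% in either direction). The median log2 change of the 6 was -0.32, beside 0.00 over all genes. The 6 factors and the gene lists below were chosen with earlier results of these data known. Their counts and medians are therefore descriptions and no test of the lists. In whole tissue, fewer cells of a type and less RNA per cell cannot be told apart.

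Tlx1 had signals of 8.42, 8.21 and 8.38 in SmoM2 and of 9.30, 9.32 and 9.22 in wild type. The SmoM2 arrays thus lay below the wild type arrays with a gap of 0.80 between the groups, wider than the range within either group. The log2 change was -0.94 (95% interval -1.12 to -0.77, SE 0.08), a signal 1.92-fold lower in SmoM2 with a limma adjusted p of 0.00135, and 0.0552% of all genes had a more negative change. The SmoM2 mean, 8.33, stood above the means of 97.2% of the olfactory and vomeronasal receptor genes, and the wild type mean, 9.28, above 99.5%, so the lower group is near the level of dim probe sets, where RMA compresses differences. Within the array sets the change was -1.10 (SmoM2 2 against wild type 1 and 2) and -0.82 (SmoM2 1 and 3 against wild type 3). Tlx1 stayed called whichever array was left out (adjusted p from 0.00150 to 0.0168). It was lost when each probe set was its own row (adjusted p = 0.0594) and without variance moderation (adjusted p = 0.169).

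Lhx9 fell as well, and its values were the next most apart. It stood at 8.75, 8.85 and 8.90 in SmoM2 and at 9.55, 9.61 and 9.47 in wild type. All 3 SmoM2 arrays were lower, with a gap of 0.57 between the groups. The SmoM2 mean, 8.83, stood above the means of 99.1% of the olfactory and vomeronasal receptor genes, and the wild type mean, 9.54, above 99.8%. The log2 change was -0.71 (95% interval -0.87 to -0.54), 1.63-fold lower in SmoM2 (adjusted p = 0.00373). Within the array sets it was -0.73 and -0.64. It passed whichever array was left out (adjusted p from 0.00438 to 0.0272), but not with Y-linked signal added to the fit (log2 change -0.62, adjusted p = 0.0714), with each probe set its own row (adjusted p = 0.0934) or without moderation (adjusted p = 0.169).

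Wt1 showed the smallest of the 3 decreases. Its signals were 9.86, 9.98 and 9.97 in SmoM2 and 10.34, 10.56 and 10.48 in wild type, again without overlap. The log2 change was -0.52 (95% interval -0.70 to -0.34), 1.44-fold lower in SmoM2 (adjusted p = 0.0201), and -0.47 and -0.56 within the array sets. The call was lost without SmoM2 1 (adjusted p = 0.0665), SmoM2 3 (adjusted p = 0.0989) or wild type 2 (adjusted p = 0.0827). It was also lost with Y-linked signal added to the fit (adjusted p = 0.212), with each probe set its own row (adjusted p = 0.192) and without moderation (adjusted p = 0.268).

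**Figure D1:**
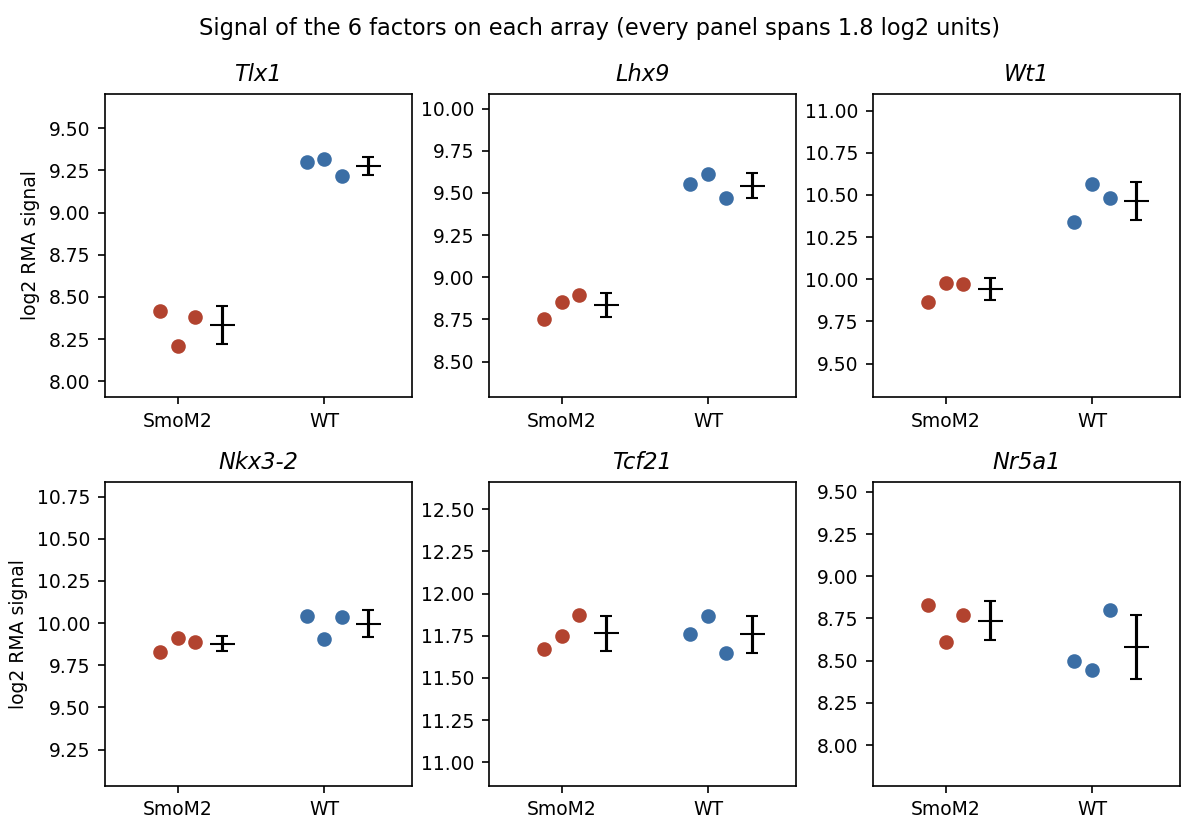
Log2 RMA signal of the 6 factors on each array, SmoM2 at left and wild type at right in each panel; points are arrays and the bar beside them is the mean ± SD (n = 3). The panels have different levels but span the same 1.8 log2 units, so the distances between groups can be set side by side. Tlx1, Lhx9 and Wt1 show no overlap, with gaps of 0.80, 0.57 and 0.36.

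The 3 other factors kept overlapping groups. Nkx3-2, the gene from which the Cre is driven, had 9.83, 9.91 and 9.89 in SmoM2 and 10.04, 9.90 and 10.04 in wild type. Wild type 2 lay within the range of SmoM2, and the log2 change was -0.12 (95% interval -0.28 to 0.04, adjusted p = 0.648). Whether the Cre allele replaces a copy of Nkx3-2 is not given in the sources used here, so this signal does not count the alleles that can make the transcript.

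Tcf21, a bHLH factor of visceral mesenchyme, read 11.67, 11.75 and 11.88 in SmoM2 and 11.76, 11.87 and 11.65 in wild type. Its log2 change was 0.0063 (95% interval -0.18 to 0.20, adjusted p = 0.991), an interval that leaves out falls of the size seen in Tlx1, Lhx9 or Wt1. Nr5a1 read 8.83, 8.61 and 8.77 in SmoM2 and 8.50, 8.44 and 8.80 in wild type, with the highest SmoM2 and the highest wild type array almost level. Its log2 change was 0.16 (95% interval -0.08 to 0.39, adjusted p = 0.689), and 98.8% of the olfactory and vomeronasal receptor genes had means below its SmoM2 mean, 98.3% below its wild type mean. With Y-linked signal added to the fit its change turned to -0.025.

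The changes of the 6 factors were also set against each other within each array, in 15 pairs. In 12 of the 15, the pairs that include Tlx1, Lhx9 or Wt1, the within-array differences did not overlap between the groups (two-sided exact permutation p = 0.1, the smallest that 3 against 3 arrays can give; Benjamini-Hochberg adjusted over the pairs, 0.125). Relative to Tcf21, Tlx1 changed by -0.95 on the log2 scale, Lhx9 by -0.71 and Wt1 by -0.53. Tlx1 changed by -0.42 relative to Wt1 and by -0.23 relative to Lhx9. These pairs rest on the same 6 arrays as the single changes and are a description of how unequal those changes were. Pairing Tlx1, Lhx9 or Wt1 with a factor whose groups overlapped largely repeats the single-gene gap. The share of such pairs among all genes was not computed.

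**Figure D2:**
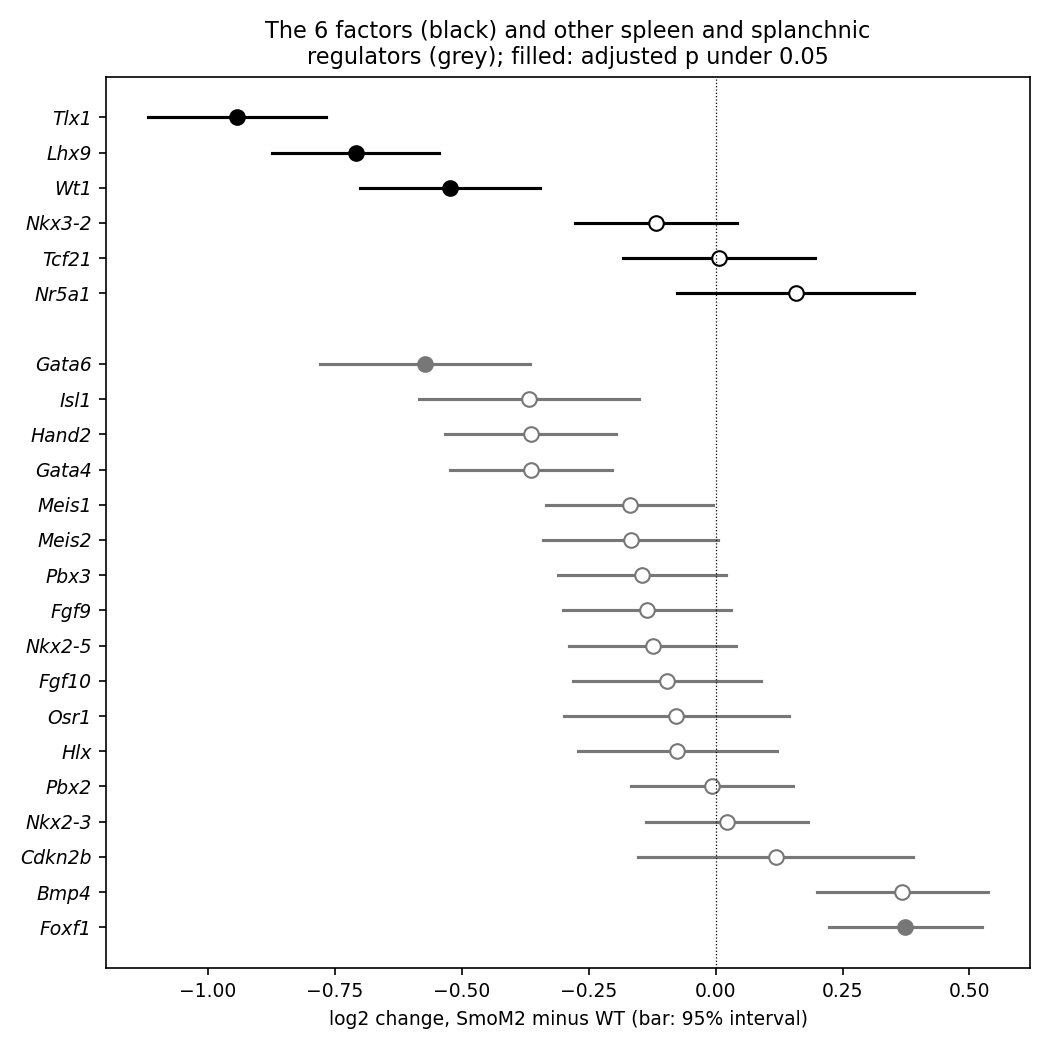
Log2 change (SmoM2 minus wild type) with its 95% interval for the 6 factors (black) and 17 other regulators of the spleen and splanchnic mesoderm (grey); filled points passed limma at adjusted p under 0.05. Tlx1 at -0.94 and Lhx9 at -0.71 lie left of every grey point, of which Gata6 at -0.57 and Foxf1 at 0.37 are filled.

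Other regulators of the spleen and of splanchnic mesoderm were read beside the 6. Of 18 measured, 1 fell, 1 rose and 16 did not pass, and 13 had a negative change (median -0.11). Of all genes 0.657% fell and 0.326% rose. Gata6, a zinc finger factor of endoderm and mesoderm, had 10.34, 10.65 and 10.63 in SmoM2 against 11.10, 11.17 and 11.06 in wild type, a log2 change of -0.57 (adjusted p = 0.0241). Foxf1, a forkhead factor of splanchnic mesoderm and a hedgehog target, had 13.74, 13.75 and 13.80 in SmoM2 against 13.43, 13.32 and 13.42 in wild type, a log2 change of 0.37 (adjusted p = 0.0366). The Foxf1 call was lost whichever of the 6 arrays was left out (adjusted p from 0.0598 to 0.219), and that of Gata6 without some (adjusted p from 0.0265 to 0.122).

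Further regulators are named here after their values were seen. Of the 18, 6 had all SmoM2 arrays below all wild type arrays and 2 had all above, beside 10.1% and 5.64% of all genes. Besides Gata6 and Foxf1, groups without overlap were found for Hand2, Isl1 and Gata4, factors of visceral and cardiac mesoderm, with log2 changes of -0.36 (adjusted p = 0.0659), -0.37 (adjusted p = 0.143) and -0.36 (adjusted p = 0.0532). They were also found for Bmp4, a BMP ligand of gut mesenchyme, at 0.37 (adjusted p = 0.0635), and for Pbx3 and Meis1. Nkx2-5, a homeobox factor of heart and spleen precursors, had 10.26, 10.06 and 10.15 in SmoM2 and 10.28, 10.26 and 10.30 in wild type (log2 change -0.12, 95% interval -0.29 to 0.04, adjusted p = 0.641). Nkx2-3, a homeobox factor of spleen and gut mesenchyme, changed by 0.02 (95% interval -0.14 to 0.18). Pbx3, Meis1 and Meis2, homeobox cofactors of Hox proteins, changed by -0.14, -0.17 and -0.17. The groups of Pbx3 and Meis1 did not overlap and those of Meis2 did. Their changes did not pass. Cdkn2b, a cell cycle inhibitor, changed by 0.12 and did not pass either.

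Genes that earlier mouse work ties to Tlx1 gave 1 decrease, Wt1 itself, among 7 measured (0.657% of all genes fell). The median was 0.03. Aldh1a1, a retinaldehyde dehydrogenase, read 9.53, 8.86 and 9.42 in SmoM2 and 9.02, 8.67 and 8.61 in wild type. SmoM2 2 lay below wild type 1, so the groups overlapped (log2 change 0.51, 95% interval 0.12 to 0.89, adjusted p = 0.289). Named after their values were seen, the retinoid genes Cyp26b1, Rdh10 and Rarb changed by 0.11, 0.05 and 0.03, and Fhl1, a LIM protein, by -0.01; these 4 did not pass.

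The closest relatives of the 6 factors did not pass the test. Of 18 measured family members limma called 0 in either direction, 2 had an unadjusted p under 0.05 (10.5% of all genes did), and changes ran from -0.33 to 0.20 with a median of 0.04. Nkx2-3 and Nkx2-5 are among these as well. Nr5a2, the liver receptor homologue related to Nr5a1, had 8.44, 8.53 and 8.51 in SmoM2 against 8.81, 8.83 and 8.82 in wild type (log2 change -0.33, adjusted p = 0.0538). Tlx3, related to Tlx1, changed by 0.20 and Tlx2 by 0.09, with adjusted p of 0.419 and 0.788. Lhx2, the nearest relative of Lhx9, changed by -0.11 (adjusted p = 0.807), and Msc, related to Tcf21, by 0.00.

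Markers of tissues that use the same factors were read beside them, since gonad, adrenal gland, kidney, mesothelium and pancreas lie near the stomach. Among 19 genes of adrenal gland and gonad 0 passed (changes from -0.36 to 0.24, median 0.09); the largest were Gata4 at -0.36 and Foxl2, an ovarian factor, at 0.24. The list averaged 7.98 to 8.09 on the SmoM2 arrays and 7.92 to 8.10 on the wild type arrays. Limma called 0 of these genes, and 3 had an unadjusted p under 0.05. Of the 19, 12 had a mean below the level that 5% of the olfactory and vomeronasal receptor genes exceed, where RMA compresses differences. The part of carried adrenal or gonad tissue in the lower Lhx9 and Wt1 was not tested.

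Genes of mesothelium, the covering epithelium that makes Wt1, gave 5 calls. Of 16 mesothelial genes other than Wt1, 5 fell, 0 rose and 11 did not pass, with 12 negative changes and a median of -0.24. Among all genes 0.657% were lower and 0.326% higher. The count of 5 fell to 0 without SmoM2 3, to 1 without wild type 1, to 2 without wild type 2 and to 3 without SmoM2 1. The mean of the list ran from 9.84 to 9.97 on the SmoM2 arrays and from 10.15 to 10.19 on the wild type arrays, which did not overlap. Igfbp5, which binds insulin-like growth factors (-0.78), Bnc1, a zinc finger factor (-0.72), and the keratins Krt18 (-0.57) and Krt8 (-0.55) had the largest falls (adjusted p from 0.00549 to 0.0241). Keratins are also made by the stomach epithelium. The remaining genes of the list are named after their values were seen. Krt7, the other gene called, changed by -0.40 (adjusted p = 0.0250). The 11 that did not pass included Gpm6a (-0.30), Krt19 (-0.26), Podxl and Lrrn4 (both -0.24), Upk1b (-0.20) and Upk3b (-0.17). The others of the 11 were Rspo1 (-0.01), Muc16 (0.01), Msln (0.08), Aldh1a2 (0.14) and Tbx18 (0.26). The part of mesothelial content in the lower Wt1, Lhx9 and Tlx1 was not tested.

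In the kidney list 1 of 11 genes fell and 1 rose (beside 0.657% and 0.326% of all genes), with a median of 0.09. These were Eya1, a coactivator of organ primordia (log2 change -0.63, adjusted p = 0.0142), and Gdnf, a growth factor that enteric mesenchyme also makes (0.49, adjusted p = 0.0247), while Pax2 and Pax8, chosen after their values were seen, which define kidney epithelium, changed by 0.01 and 0.09. Without SmoM2 3, wild type 1 or wild type 2 neither call passed (adjusted p from 0.0503 to 0.153), and Gdnf was also lost without SmoM2 2 (adjusted p = 0.0502). Pancreas, whose dorsal bud lies in the same mesentery as the spleen, had 2 of 10 genes lower and 0 higher (median -0.06). The shares of all genes were again 0.657% and 0.326%. Cpa1, a digestive enzyme, had 9.97, 9.94 and 10.23 in SmoM2 against 11.43, 10.73 and 10.92 in wild type (log2 change -0.98, adjusted p = 0.0258), and Gcg, the glucagon gene, changed by -0.86 (adjusted p = 0.0168). Neither passed without SmoM2 1 (adjusted p = 0.115 and 0.0655) or SmoM2 3 (adjusted p = 0.0950 for both), and Cpa1 was also lost without SmoM2 2 (adjusted p = 0.0527). Pdx1, the pancreatic and duodenal homeobox gene, named after its value was seen, stood at -0.41 (adjusted p = 0.0662). The part in the factors' decrease of how much tissue beside the stomach was taken along at dissection was not tested.

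Cells that later fill the spleen showed no called gene. Of 15 genes of spleen stroma and sinus endothelium 0 passed (median -0.04), with Cxcl13, a chemokine of lymphoid stroma, at -0.46 (adjusted p = 0.189) and Nr2f2, a nuclear receptor of veins and mesenchyme, at -0.44 (adjusted p = 0.0535). Of 14 blood cell genes 0 passed, but 11 were negative (median -0.16), with Pf4, a platelet and macrophage gene, at -0.48 (adjusted p = 0.205) and Lyz2, a myeloid lysozyme, at -0.39 (adjusted p = 0.0739). The blood cell list averaged 8.93 to 9.04 on the SmoM2 arrays and 9.16 to 9.19 on the wild type arrays. At an unadjusted p under 0.05 there were 5 stroma and sinus genes and 7 blood cell genes, beside 10.5% of all genes.

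**Figure D3:**
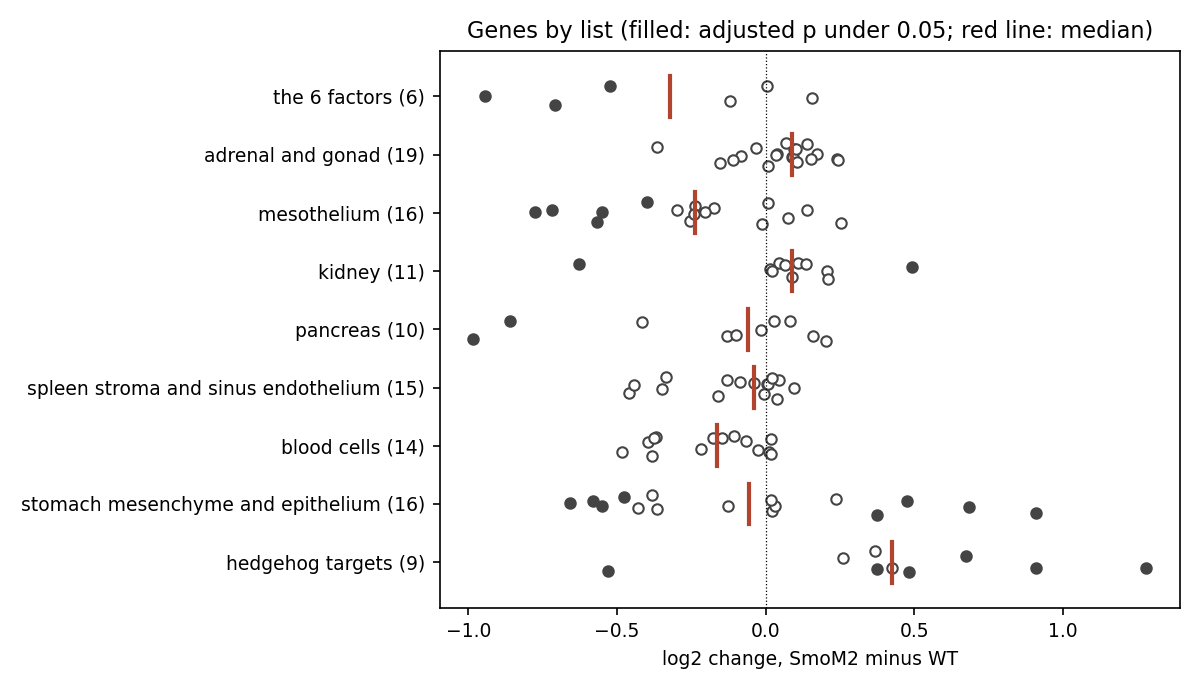
Log2 change (SmoM2 minus wild type) of each gene by list, with the number measured; filled points passed limma at adjusted p under 0.05 and the red line is the median. The 6 factors have a median of -0.32 and the mesothelial genes of -0.24, while adrenal and gonad genes sit around 0.09. The factors and lists were chosen with earlier results of these data known.

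Genes that define the labelled tissue and the activated pathway were read in both groups, without a detection call. Of 16 stomach mesenchyme and epithelium genes 4 rose and 4 fell (median -0.05), beside 0.326% and 0.657% of all genes. The largest changes were Foxf2 (0.91), Actg2, the smooth muscle actin (0.69), Cldn6, a tight junction gene (-0.66), and Cdh1, E-cadherin (-0.58). With 1 array left out, 1 to 3 of these genes rose and 0 to 5 fell, with 0 falling without SmoM2 3 or wild type 1. Among 9 hedgehog targets 5 rose and 1 fell (median 0.42), beside 0.326% and 0.657% of all genes. Hhip, a hedgehog-binding protein, led at 1.28 (limma adjusted p = 0.000175), followed by Foxf2 at 0.91 and Foxl1, a forkhead factor of gut mesenchyme, at 0.68. The wild type mean of Foxl1, 8.35, lies near the level of dim probe sets, where RMA compresses differences. Igf1, a growth factor, was the 1 that fell, at -0.53 (adjusted p = 0.0245). Ptch1, the hedgehog receptor, rose by 0.48 (adjusted p = 0.0174), while Gli1, a transcription factor of the pathway, stood at 0.42 (adjusted p = 0.0727) and Smo, which the transgene encodes in active form, at 0.35 (adjusted p = 0.154). With 1 array left out, 2 to 4 targets rose and at most 1 fell; 2 rose without SmoM2 3, wild type 1 or wild type 2, and 3 without SmoM2 1.

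The genes whose pattern over the 6 arrays was most like that of each factor were found by Pearson's r among genes at least 0.5 times as variable. For Tlx1 these were Col8a1, a collagen chain (r = 0.990), Dbh, which makes noradrenaline (r = 0.985), and Cym, a gastric protease (r = 0.985). For Lhx9 they were Hey2, a Notch target (r = 0.997), Cntfr, a cytokine receptor (r = 0.995), and Dbh (r = 0.994). For Wt1 they were Sema5a, a semaphorin (r = 0.997), Kcnab1, a potassium channel subunit (r = 0.997), and Robo2, a Slit receptor (r = 0.996). In these 3 sets the r mostly follows the step between the groups. An r over 0.9 was found for 85 of 576, 258 of 1623 and 244 of 4549 genes compared. Tcf21 was nearest to Pnrc2, Atxn1 and Fam120a (r from 0.979 to 0.982), and Nkx3-2 to Gripap1, Traf2 and Hdac3 (r from 0.994 to 0.996). Nr5a1 was nearest to Olfr130, an olfactory receptor gene, Arhgap40 and A230072E10Rik (r from 0.995 to 0.998). Of the 14051 genes compared with Nr5a1, 839 had an r over 0.9. The points share the array sets and the normalization.

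**Figure D4:**
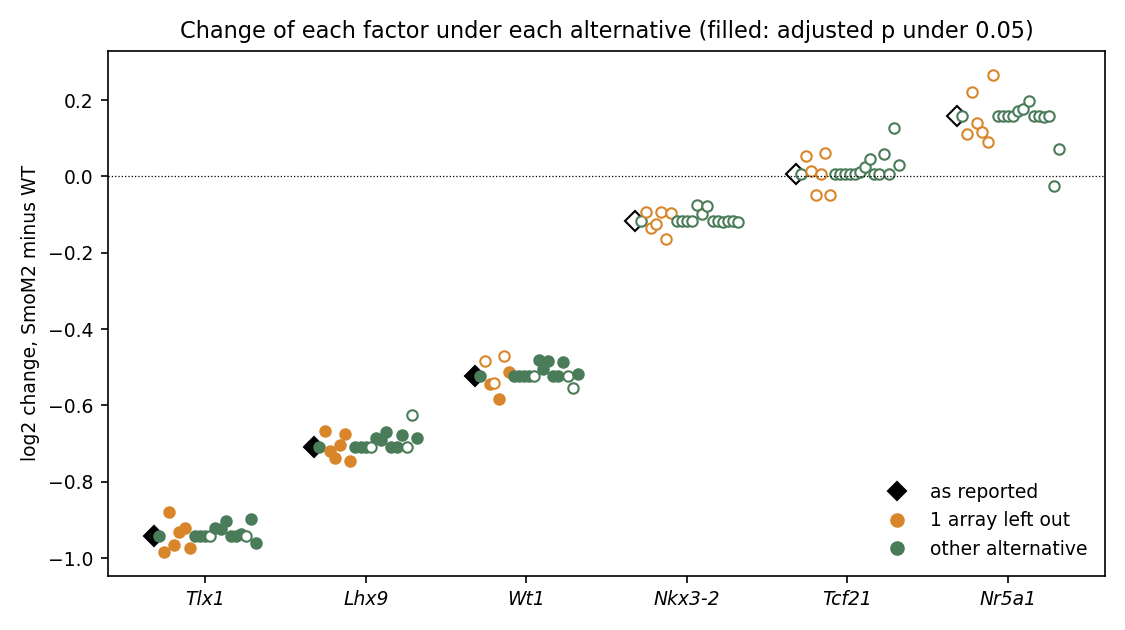
Log2 change of each factor as reported (diamond), with 1 array left out (orange) and under the other alternatives (green); filled symbols have a limma adjusted p under 0.05. Tlx1 ran from -0.98 to -0.88, Lhx9 from -0.75 to -0.62 and Wt1 from -0.58 to -0.47, and Wt1 has the most open symbols of these 3.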

How the data were processed

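Total RNA from the stomach of 3 SmoM2 and 3 wild type samples was extracted with Trizol and labelled with biotin, per the labels' protocols. The authors deposited log2 signals of 35556 probe sets, and the submitters' processing notes list RMA and affy, with no version. Sample titles gave group and replicate. Platform annotation gave 21789 probe sets 1 symbol and 1621 several; the others were unnamed. Each of 19938 genes was read from its single-symbol probe set with the highest mean. The 6 factors each had 1 such probe set.

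SmoM2 and wild type were compared over all genes with limma 3.58.1 in R 4.3.3 (lmFit, eBayes), with Benjamini-Hochberg adjustment over all genes and a threshold of 0.05; the fit was tested on simulated data. The 12 gene lists are described by counts and medians, with no set test. The members and lists were chosen with earlier results of these data known. Named genes were the 6 factors, 4 hedgehog pathway genes (Hhip, Ptch1, Gli1 and Smo), up to 4 called members of each list with the largest change (or the 2 with the largest change where fewer than 2 were called), relatives of the factors, and the 3 genes most like each factor. Sex-linked genes and some genes beside the factors on the chromosome are named as well. Others are marked as chosen after their values were seen. Some genes of the lists are not reported here. In all, 20 alternative settings were run, and 1 more was added after seeing the data. No depth applies to arrays; their number limits the precision. Promoters and motifs were read from RefSeq windows of 250 bases.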

Additional observations from a re-analysis of the deposited data

How the results depend on the processing

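Tlx1 kept its direction in all 20 alternatives that gave a value and its call in 18, Lhx9 in 20 and 17, and Wt1 in 21 and 15. Each probe set as its own row gave Tlx1 -0.94 (adjusted p = 0.0594), Lhx9 -0.71 (0.0934) and Wt1 -0.52 (0.192). That fit held all 35556 probe sets, unnamed and several-symbol ones included, and called 5 probe sets and 1 list gene. No moderation left the changes of these 3 factors as they were, at adjusted p of 0.169, 0.169 and 0.268. The ordinary linear model then called 0 genes and 0 list genes (1873 genes at an unadjusted p under 0.05, against 2098 with moderation). With Y-linked signal added to the fit 22 genes and 2 list genes were called, Lhx9 was at -0.62 and Wt1 at -0.56, and Nr5a1 turned to -0.025. Leaving out 1 array at a time gave 32 to 247 genes (196 with all arrays) and 2 to 23 list genes (22 with all), with Tlx1 from -0.98 to -0.88, Lhx9 from -0.75 to -0.67, Wt1 from -0.58 to -0.47, Nkx3-2 from -0.16 to -0.09, Tcf21 from -0.049 to 0.061 (negative without SmoM2 3 or wild type 3) and Nr5a1 from 0.09 to 0.27. The lowest count, 32, came without SmoM2 3, and 51, 62 and 80 came without wild type 1, wild type 2 and SmoM2 1.

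The replicate number as a block gave 698 genes and 41 list genes, and the 3 factors kept their calls. Whether these numbers pair the samples is not given. The deviations of same-numbered SmoM2 and wild type arrays from their group means correlated at -0.10, 0.52 and 0.06. Those correlations cannot decide it, since the deviations also hold the difference between the 2 array sets. An intensity trend gave 336 genes, array weights (fitted gene by gene) 343, centring on the 75th percentile 120, and a term for the 2 array sets, chosen after seeing the data, 324. The cause of these differences was not tested. A filter above the median of all probe sets kept all 6 factors; one above the 75th percentile kept 2, Tcf21 and Wt1, so the other 4 have no value there. Brightness limits Tlx1 in SmoM2 and Nr5a1 in both groups, which lie near the level of dim probe sets. The SmoM2 mean of Lhx9, 8.83, lies only a little above that of Nr5a1, 8.74.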

Other observations

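Protein-coding genes on either side of each factor, 2 on each side in the RefSeq order, gave 24 neighbours, of which 22 were measured. Of these 22, 2 were lower in SmoM2 and 0 higher, beside 0.657% and 0.326% of all genes. Kazald1, which encodes a secreted protein with a Kazal domain and lies beside Tlx1, had 7.40, 7.45 and 7.46 in SmoM2 and 8.39, 8.14 and 8.15 in wild type (log2 change -0.79, SE 0.08, 1.73-fold lower, limma adjusted p = 0.00373). Lbx1 and Btrc, on the other side of Tlx1, changed by 0.09 and -0.14 and did not pass. The SmoM2 mean of Kazald1, 7.44, lies below 7.68, the level that 10% of the olfactory and vomeronasal receptor genes exceed, so its fold is not a measure of size. Eya4, a coactivator that lies beside Tcf21, was at 8.82, 8.98 and 8.85 in SmoM2 and 9.36, 9.42 and 9.29 in wild type (log2 change -0.47, adjusted p = 0.0230), although Tcf21 itself did not pass. Its relative Eya1, on another chromosome, also fell.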
